A study of Mus musculus with 16 samples.

Results

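The carbonic anhydrase and aquaporin genes *Car1*, *Car2*, *Aqp1*, *Aqp3* and *Aqp9* were followed through the RNA-seq and m6A libraries of mouse CFU-E cells. These 5 genes were taken by symbol, all 5 were found among the 15386 genes of the RNA-seq table and the 13490 genes of the m6A table, and they were chosen by their levels in the RNA-seq groups, to set a gene that is higher against genes that are lower. Their RNA-seq difference is therefore a description and was not tested, whereas the m6A libraries played no part in the choice.

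CFU-E cells are committed erythroid progenitors that depend on erythropoietin. The study sorted them from bone marrow of C57BL/6 mice as Lin- CD16/32- CD41- CD34- Sca1- cells positive for Kit and CD71. RNA-seq was done on 3 control CFU-E libraries and on 3 libraries that the labels give as *Mettl3*-deficient and low in Kit, named the libraries labelled Kit-lo in the following text. The deficient mice carried floxed *Mettl3*, the catalytic subunit of the m6A methyltransferase, and *EpoR-tdTomato-Cre*, which also recombines in erythroblastic island macrophages, while the labels give the other mice only as control. SLIM-seq, an m6A capture sequencing method for small amounts of RNA, was done on control CFU-E cells with 2 IP and 2 input libraries. The RNA-seq groups differed in genotype and also in the Kit gate, so that the effects of these cannot be told apart. In bulk RNA, fewer cells of a type and less RNA per cell cannot be told apart either.

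Carbonic anhydrases interconvert carbon dioxide and bicarbonate, and in the red cell this reaction lets blood carry carbon dioxide from the tissues to the lung. *Car1* and *Car2* encode the cytosolic enzymes of erythroid cells, of which the product of *Car2* has the higher turnover. Aquaporins are membrane channels: *Aqp1* encodes the water channel of the red cell membrane, and *Aqp3* and *Aqp9* encode aquaglyceroporins, which pass glycerol besides water.

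On GRCm38, *Car1* takes up 14766216 to 14808368 of chromosome 3 on the minus strand, and *Car2* lies 77.9 kb away from 14886273 to 14900770 on the plus strand. *Car13* and *Car3* belong to the same cluster, and *Car3* lies between *Car1* and *Car2*. *Aqp1* takes up 55336432 to 55348555 of chromosome 6, plus strand. *Aqp3* lies on chromosome 4 from 41092722 to 41098183 and *Aqp9* on chromosome 9 from 71110659 to 71168682, both on the minus strand. No exonic base of these 5 genes is shared with another annotated gene, so their counts do not depend on whether strand was used in counting.

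The total counts were 17429262 to 21329242 per RNA-seq library and 19421059 to 37142742 per m6A library. The paper reports, by qRT-PCR and Western blot, that erythroid cells of the deficient mice lacked *Mettl3* mRNA and protein and had less m6A. The targeted gene, *Mettl3*, was at 123 ± 7.43 CPM, counts scaled to library size, in control cells against 117 ± 9.52 CPM in those labelled Kit-lo, with SD over 3 libraries (log2 fold change -0.07, adjusted p = 0.634 from edgeR). Its RNA-seq counts here therefore did not check the genotype label. *Kit* was at 598 ± 47.1 CPM in control cells against 55.2 ± 12.4 CPM in those labelled Kit-lo (SD, n = 3 each). Among the 7 CFU-E markers, *Gata1* had means of 594 and 626 CPM in control and in the libraries labelled Kit-lo. *Epor* had means of 225 and 340 CPM and *Tfrc* of 678 and 619 CPM, so that both groups carried erythroid RNA. These 7, *Car1* and *Car2* included, summed to 15500 to 16000 CPM in control and 10400 to 11700 CPM in those labelled Kit-lo. The lower sum came from *Car1* (means of 4052 and 735 CPM) and *Car2* (9326 and 7440 CPM). Of the 7, 4 had a positive log2 fold change, among them *Klf1* (958 and 1444 CPM) and *Tal1* (15.0 and 22.4 CPM). The 7 early progenitor markers, *Kit* among them, summed to 2640 to 2800 CPM in control and 1990 to 2300 CPM in those labelled Kit-lo. Of the 6 tested, *Gata2* (log2 fold change -3.93), *Myb* (-2.83) and *Kit* (-3.44), on which the cells were gated, were far lower. *Myc* (-0.38) and *Runx1* (-0.03) differed less. *Gfi1b* was the 1 with a positive log2 fold change (0.38, means of 1013 and 1314 CPM).

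The cytosolic enzymes parted between the groups. In the libraries labelled Kit-lo *Car1* was far lower than in control, whereas *Car2*, close to it on the chromosome, was only slightly lower. *Car1* was at 3861, 4256 and 4040 CPM in control CFU-E and at 746, 802 and 657 CPM in those labelled Kit-lo. All 3 of these were far below all 3 control libraries. The ratio of the means was 0.181 and the log2 fold change was -2.46 (standard error 0.09), which ranked 154 from the lowest of 11979 genes. The SD within groups was 0.114 on the log2 scale.

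*Car2* was at 9666, 8829 and 9484 CPM in control CFU-E and at 6616, 7829 and 7875 CPM in those labelled Kit-lo. Every library labelled Kit-lo was below every control library, but the nearest values lay close together, and library 1 of the Kit-lo group was the lowest. The ratio of the means was 0.798 and the log2 fold change was -0.33 (standard error 0.08, SD within groups 0.112), at percentile 26.9 of all genes tested. Even after this difference *Car2* stayed one of the most abundant mRNAs, with 0.681 to 0.807% of all counts in the libraries labelled Kit-lo against 0.886 to 0.946% in control.

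The aquaporins also parted, in opposite directions. *Aqp1* was at 1575, 1289 and 1459 CPM in control CFU-E and at 2143, 1990 and 1810 CPM in those labelled Kit-lo. All libraries labelled Kit-lo were above all control libraries, with a ratio of the means of 1.38 and a log2 fold change of 0.46 (standard error 0.09, SD within groups 0.135), at percentile 77.4 of the genes tested. Of the 4 genes fitted it was the only one for which the libraries labelled Kit-lo were all higher.

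*Aqp9* was at 312, 363 and 328 CPM in control CFU-E and at 78.1, 81.2 and 74.0 CPM in those labelled Kit-lo. The groups were far apart and each was tight, with an SD within groups of 0.091 on the log2 scale. The log2 fold change was -2.10 (standard error 0.09), which ranked 223 from the lowest of 11979. *Aqp9* is also known from granulocytes, macrophages and liver. The summed CPM of 12 granulocyte markers, 10 of them in the table, was 26.7 to 39.6 in control and 17.2 to 26.9 in the libraries labelled Kit-lo, which overlapped slightly. Among these markers *Mpo* fell (log2 fold change -1.97, adjusted p = 0.0231 from edgeR) and *Ngp*, a gene of granulocyte granules, rose (3.31, adjusted p = 0.0091 from edgeR) from 0 to 6 counts to 23 to 43 counts. The summed CPM of 12 macrophage markers, 11 of them in the table, was 23.4 to 29.3 in control and 13.3 to 17.5 in the libraries labelled Kit-lo. Of 7 tested macrophage markers 0 were called higher and 2 lower by edgeR at a fold of at least 1.5 and an adjusted p under 0.05. Of all 11979 genes tested, 12.1% were called higher and 9.83% lower by that rule. The 2 lower markers were *Cd163* (log2 fold change -1.09, adjusted p = 0.00387 from edgeR) and *C1qa* (-1.91, adjusted p = 0.0306 from edgeR). The 5 markers not called were *Vcam1* (-1.05), *C1qb* (-0.25), *Csf1r* (0.31), *Cd68* (0.13) and *Mertk* (0.52). *Adgre1* was at 2 counts in each control library and at 0 in each labelled Kit-lo. In every library both sums were below the CPM of *Aqp9*. Their part in its difference was not tested.

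*Aqp3*, the aquaglyceroporin best known from epithelia and from human red cells, was near the limit of detection. It had 1, 4 and 8 counts in control CFU-E and 1, 10 and 8 counts in the libraries labelled Kit-lo. These counts overlapped and did not pass the filter on low counts, so *Aqp3* entered no comparison of the RNA-seq groups. Thus 4 of the 5 genes were fitted there.

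**Figure D1:**
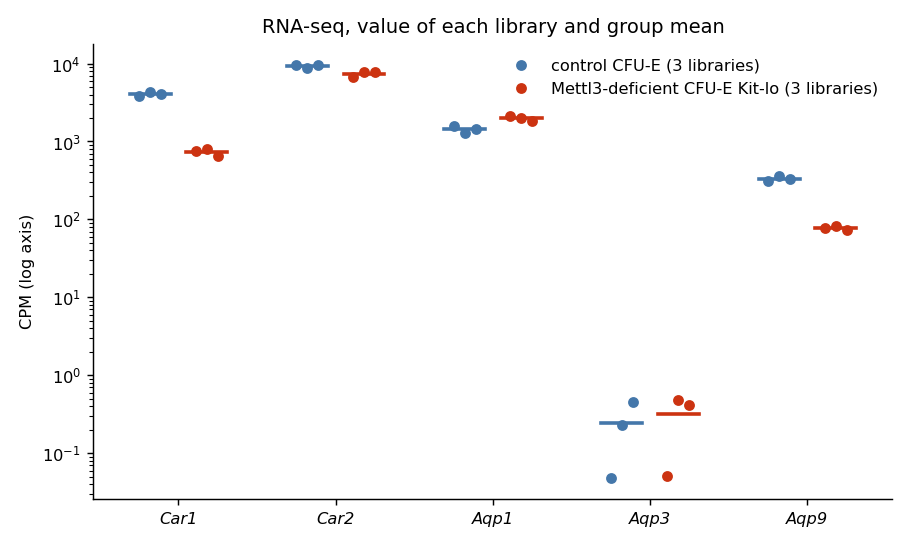
CPM of each of the 5 genes in each RNA-seq library on a log axis, with control CFU-E in blue, the libraries labelled Kit-lo in red, points for single libraries and bars for group means of 3. *Car1* and *Aqp9* sit at separate, lower levels in red, *Car2* and *Aqp1* differ little and in opposite directions, and *Aqp3* stayed below 1 CPM.

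Across all 11979 genes tested, 24.0% had every library labelled Kit-lo below every control library and 23.5% had every one above. *Car1*, *Car2* and *Aqp9* were of the first kind and *Aqp1* of the second. The differences of *Car2* and *Aqp1* were smaller than 1.5-fold, while those of *Car1* and *Aqp9* were larger. The choice of the genes used these values, so nothing is read from these counts. The median log2 fold change of all genes tested was 0.008.

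On a scale that allows genes to be compared, TPM, counts scaled to transcript length and library size, from the longest annotated coding transcript, *Car2* was the highest of the 5 in control CFU-E, at 11030 ± 469 TPM (SD, n = 3), rank 3 from the highest of 15376 genes with a length. *Car1* followed at 7180 ± 389 TPM, rank 9, then *Aqp1* at 1160 ± 113 TPM, rank 91, *Aqp9* at 267 ± 22.5 TPM, rank 681, and *Aqp3* at 0.292 ± 0.242 TPM (SD, n = 3 each). No neighbours in this order overlapped between libraries.

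In the libraries labelled Kit-lo the order changed. *Car2* was at 9307 ± 767 TPM, rank 4, and *Aqp1*, at 1693 ± 209 TPM, rank 57, stood beside *Car1* at 1383 ± 191 TPM, rank 75 (SD, n = 3 each). The ranges, 1465 to 1877 TPM for *Aqp1* and 1171 to 1540 TPM for *Car1*, overlapped, although *Aqp1* was the higher of the pair within each of the 3 libraries. *Aqp9* was at 65.9 ± 5.71 TPM, rank 2839, and *Aqp3* at 0.400 ± 0.295 TPM (SD, n = 3 each). With the mean coding transcript length in place of the longest, *Aqp1* was at 1250 TPM and *Car1* at 1334 TPM, with *Aqp1* the lower in each of these libraries, so the order of this pair depends on the length used.

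Ratios taken within a library do not depend on its scaling. *Car2* over *Car1*, per length, was 1.67, 1.39 and 1.57 in control against 5.92, 6.52 and 8 in the libraries labelled Kit-lo. The groups were far apart, and in each library *Car2* was the higher of the pair. *Aqp1* over *Aqp9* was 5.08, 3.58 and 4.48 in control and 27.7, 24.7 and 24.6 in the libraries labelled Kit-lo. Within each library *Aqp1* exceeded *Aqp9*, by a wider margin in the libraries labelled Kit-lo.

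**Figure D2:**
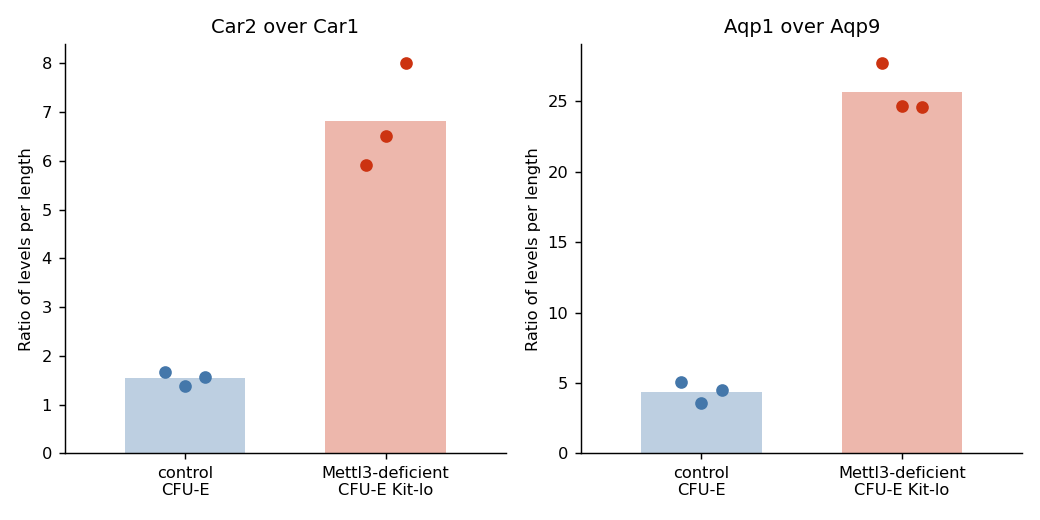
Ratio of levels per transcript length within each RNA-seq library, for *Car2* over *Car1* (left) and *Aqp1* over *Aqp9* (right), with points for libraries and bars for the mean of 3 in control CFU-E (blue) and in the libraries labelled Kit-lo (red). The *Car2* over *Car1* ratio was 1.39 to 1.67 in control and 5.92 to 8 in the libraries labelled Kit-lo, and the *Aqp1* over *Aqp9* ratio was 3.58 to 5.08 and 24.6 to 27.7.

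The sequences before the starts of *Aqp1* and *Aqp9* are shown because these 2 aquaporins were both abundant in control CFU-E and differed in opposite directions. They are the 120 bases before the RefSeq start on GRCm38.p6, at chr6:55336179-55336298 on the plus strand and chr9:71163290-71163409 on the minus strand. Capitals mark matches, on either strand, to CACCC, a motif bound by KLF factors, or to AGATAA or TGATAA, motifs bound by GATA factors. RefSeq windows were at hand for 3 of the 5 genes, and only the first listed window of a gene was used. The *Aqp9* window lies inside the annotated span of the gene, 71110659 to 71168682, and so not before its outermost annotated start.
*Aqp1*: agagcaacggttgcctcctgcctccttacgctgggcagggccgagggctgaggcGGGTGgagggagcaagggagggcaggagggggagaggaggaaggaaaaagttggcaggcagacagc
*Aqp9*: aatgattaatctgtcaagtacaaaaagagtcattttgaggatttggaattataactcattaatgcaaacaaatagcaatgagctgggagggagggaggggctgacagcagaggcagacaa
The *Aqp1* window held 1 CACCC match, on the minus strand, and no GATA match, and the *Aqp9* window held neither. Of all 32851 such windows, 31.7% held a CACCC match and 7.6% a GATA match. The windows also differed in base composition, with 65.8% G and C in *Aqp1* and 40.0% in *Aqp9*. A match describes letters and not binding.

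m6A capture was compared between IP and input in control CFU-E cells only, where 904 of 11447 genes were higher in IP (7.90%) and 900 were lower (7.86%) by edgeR's quasi-likelihood test at an adjusted p under 0.05. With library totals alone this split was 934 higher and 608 lower, and with upper-quartile scaling 1451 and 754. The split was 164 higher and 427 lower without input replicate 1, 433 and 740 without IP replicate 1, 571 and 672 without input replicate 2, and 1358 and 968 without IP replicate 2. All 5 genes were tested, and edgeR called 0 of them in either direction. *Car2* and *Aqp9* had an unadjusted p under 0.05, and DESeq2 called 1 of the 5, *Car2*, as lower in IP.

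*Car2* was at 6394 and 7797 CPM in input and at 3698 and 4337 CPM in IP. Both IP libraries were below both input libraries, with IP over input ratios of 0.578 and 0.556 for the libraries numbered 1 and 2. The log2 fold change was -0.82 (standard error 0.26, 95% interval -1.40 to -0.24, unadjusted p = 0.0101, adjusted p = 0.0573 from edgeR), at percentile 10.9 of the genes tested. DESeq2 gave -0.86 with an adjusted p of 0.00609. The adjusted p ran from 0.00341 to 0.414 over the alternatives, and *Car2* was called by edgeR without either IP library but not without either input library.

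*Aqp9* leaned the other way. It was at 41.4 and 31.3 CPM in input and at 73.8 and 41.6 CPM in IP, with IP over input ratios of 1.78 and 1.33 for the libraries numbered 1 and 2, and the second IP library was level with the first input library. The log2 fold change was 0.67 (standard error 0.30, 95% interval 0.0038 to 1.33, unadjusted p = 0.0489, adjusted p = 0.154 from edgeR). The estimate rested on IP replicate 1. The log2 fold change was 0.18 with IP replicate 1 left out and 1.02 (adjusted p = 0.0304 from edgeR) with IP replicate 2 left out. With the replicate number as a block, which the labels do not give as a pairing, it was 0.63 (adjusted p = 0.0165 from edgeR), a call.

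*Car1* and *Aqp1* lay near the median of all genes, which was 0.06. *Car1* was at 7760 and 6820 CPM in input and 6684 and 6874 CPM in IP, and these libraries overlapped (log2 fold change -0.10, 95% interval -0.67 to 0.46, adjusted p = 0.816 from edgeR). *Aqp1* was at 311 and 164 CPM in input and 292 and 205 CPM in IP, overlapping as well (log2 fold change 0.06, 95% interval -0.62 to 0.75, adjusted p = 0.91 from edgeR). Its input libraries differed from each other by more than its IP libraries did. *Aqp3* had 12 and 0 counts in input and 26 and 9 in IP, too few for a direction (95% interval -1.12 to 3.001, adjusted p = 0.524 from edgeR).

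**Figure D3:**
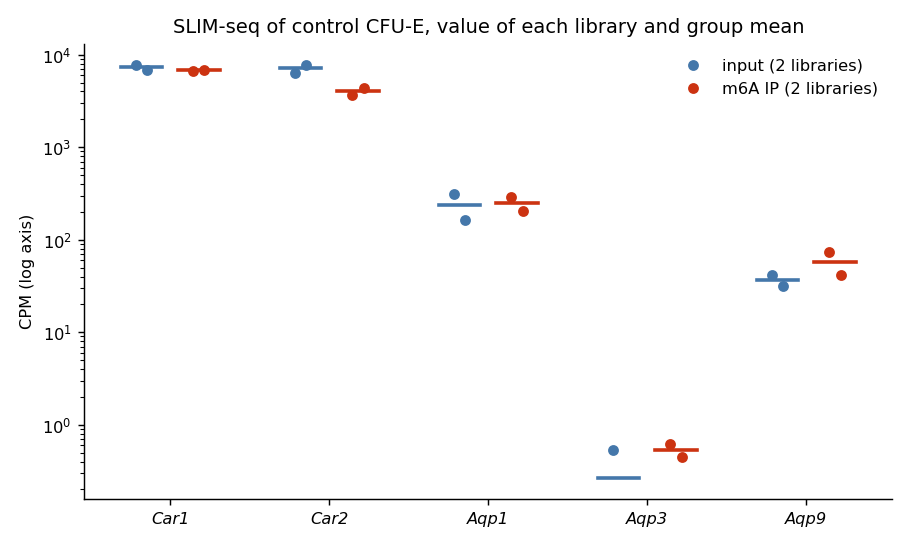
CPM of the 5 genes in the SLIM-seq libraries of control CFU-E on a log axis, with input in blue, IP in red, points for single libraries and bars for means of 2. The *Car2* IP libraries (3698 and 4337 CPM) sit below both inputs, the *Aqp9* IP libraries sit at or above both inputs, and the *Aqp3* input library with 0 counts has no point on this axis.

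Levels also differed between the library types, within control cells. *Car1* was higher in the SLIM-seq input (6820 and 7760 CPM) than in control RNA-seq (3861 to 4256 CPM), and *Car2* was lower (6394 and 7797 against 8829 to 9666 CPM). *Aqp1*, at 164 and 311 CPM in input against 1289 to 1575 CPM, and *Aqp9*, at 31.3 and 41.4 against 312 to 363 CPM, were far lower in input. The tables were normalized separately and the library methods differ, so no test was made. Within SLIM-seq the final PCR used a 3′ primer, so a transcript's count there need not scale with its length.

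METTL3 methylates adenosines within a short consensus of which GGACT is the most used form. GGACT occurred 1 time in the longest coding transcript of *Car1*, in the 5′ UTR, and 3 times in *Car2*, all in the coding sequence. It occurred 1 time in *Aqp1* and 2 times in *Aqp3*, all in the 3′ UTR, and 4 times in *Aqp9*, with 2 in the coding sequence and 2 in the 3′ UTR. Per kb this was 0.838, 1.678, 0.381, 1.133 and 1.512 in the order of naming, beside a median of 1.026 and quartiles of 0.619 and 1.498 over 14834 coding genes. The highest density, of *Car2*, went with the lowest IP over input ratio of the 5, so that motif density and capture did not rank these genes alike.

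The sites of the aquaporins are shown because *Aqp9* held the most and *Aqp1* the fewest motifs per kb of the 3 aquaporins followed here. Each is a 29-base stretch of GRCm38 transcript sequence with GGACT in capitals, read 5′ to 3′ on the transcript strand, and none is known from these data to carry m6A.
*Aqp1* 3′ UTR: ggtcaatgacgtGGACTcctctcacctcc
*Aqp9* coding, first: atttactatgacGGACTcatggcctttgc
*Aqp9* coding, second: tcctgttctctcGGACTcaactctggttg
*Aqp9* 3′ UTR, first: ctaaaagctagtGGACTctacctggtgga
*Aqp9* 3′ UTR, second: actctacctggtGGACTaaagttggaggt
The *Aqp1* motif lies at chr6:55348322-55348326, 1527 bases past the end of the coding sequence. The coding motifs of *Aqp9* lie at chr9:71130533-71130537 and chr9:71122878-71122882. Its 3′ UTR motifs lie at chr9:71111406-71111410 and chr9:71111392-71111396, so close that their printed stretches overlap, 803 and 817 bases past the coding end.

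**Figure D4:**
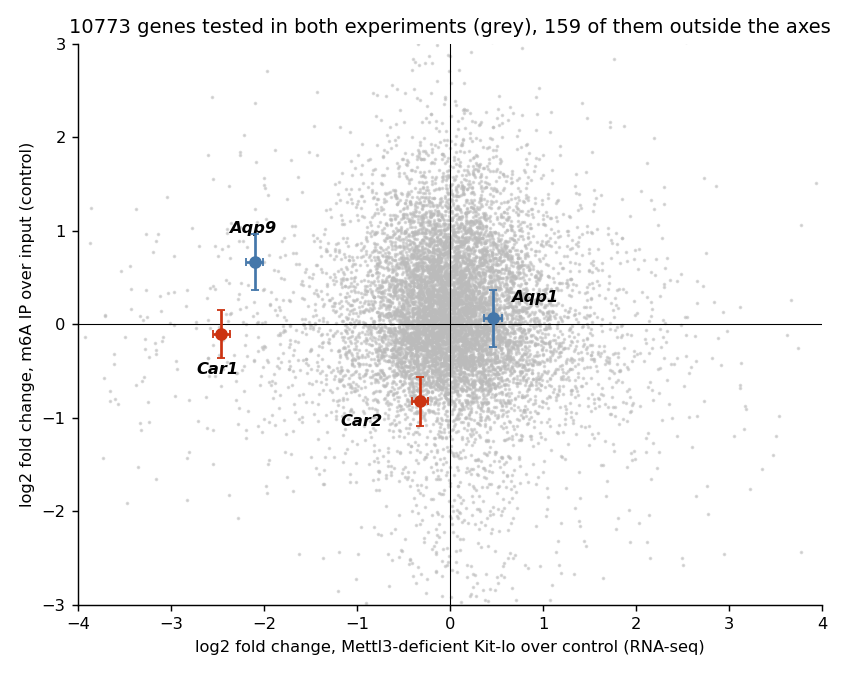
Log2 fold change of the libraries labelled Kit-lo over control (x axis, RNA-seq) against log2 fold change of m6A IP over input in control CFU-E (y axis), with 10773 genes tested in both in grey (159 outside the axes), carbonic anhydrases in red, aquaporins in blue and standard errors as bars. *Car1* and *Aqp9* sit far left near and above 0 on the y axis, *Car2* sits below 0 on the y axis, and *Aqp1* sits near the centre.

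The genes with the most similar profiles were found by the root mean square difference of log2 CPM, centred within each experiment, over the 10 libraries and 10772 other genes. Nearest to *Car1* were *Grb10*, an adaptor that restrains growth factor receptors, and *Sptssa*, a subunit of serine palmitoyltransferase, each at 0.173. Nearest to *Aqp9* were *Clstn1* (0.164) and *Patl1*, a factor of mRNA decapping (0.196). *Car1* and *Aqp9* lay near each other, at a difference of 0.337, where *Aqp9* ranked 45 from *Car1* and *Car1* ranked 36 from *Aqp9*.

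Nearest to *Car2* were *Msra*, a methionine sulfoxide reductase (0.0713), and *Atp5g3*, a subunit of the mitochondrial ATP synthase (0.0925), while *Car1* ranked 9753 from *Car2* and *Car2* ranked 2552 from *Car1*, at a difference of 0.873. Nearest to *Aqp1* were *Ptcd1* (0.0798) and *Prep*, a prolyl endopeptidase (0.0943), while *Aqp9* ranked 10206 from *Aqp1* and *Aqp1* ranked 7403 from *Aqp9*, at a difference of 1.02. The likeness includes the RNA-seq groups on which the 5 genes were chosen and is a description without a test.

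The other genes of both families were tested between the RNA-seq groups and counted beside all genes, of which 12.1% were called higher and 9.83% lower at a fold of at least 1.5 and an adjusted p under 0.05 by edgeR. Of 14 other carbonic anhydrases 9 were in the table and 5 passed the filter, and 0 were called higher and 1 lower, with a median log2 fold change of -0.34. The one that fell was *Car7*, a cytosolic enzyme best known from neurons. It was at 2.15, 3.03 and 1.43 CPM in control and 0.727, 0.874 and 0.730 CPM in those labelled Kit-lo (log2 fold change -1.50, adjusted p = 0.0353 from edgeR). It held its call in 8 of 15 alternatives and lost it when any of 5 of the 6 libraries was left out.

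The neighbours of *Car1* and *Car2* in the cluster were low and not called. *Car3* was at 5.94, 7.49 and 7.04 CPM in control and 5.25, 5.10 and 5.79 CPM in those labelled Kit-lo (log2 fold change -0.34, standard error 0.24, adjusted p = 0.307 from edgeR). *Car13* was at 7.23, 8.29 and 7.61 CPM and at 8.93, 7.19 and 12 CPM (log2 fold change 0.28, standard error 0.24, adjusted p = 0.411 from edgeR). Both were far below *Car1* and *Car2* in every library. *Car5b*, a mitochondrial enzyme, had a log2 fold change of 0.09 and *Car9*, a membrane enzyme induced by low oxygen, one of -0.87 (adjusted p = 0.882 and 0.186 from edgeR), and *Car9* shares 9.29% of its exonic bases with an antisense gene.

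Of 9 other aquaporins 4 were in the table and 3 passed the filter, with 0 called higher and 2 lower and a median log2 fold change of -1.07. *Aqp7*, an aquaglyceroporin like *Aqp9*, was at 34.7, 29.2 and 21.9 CPM in control and 5.04, 5.15 and 9.13 CPM in those labelled Kit-lo. These did not overlap (log2 fold change -2.15, standard error 0.27, adjusted p = 2.21e-04 from edgeR). *Aqp7* lies 44.6 kb from the barely detected *Aqp3*.

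*Aqp11*, an aquaporin of intracellular membranes, was at 40.9, 58.2 and 56.8 CPM in control and 22.1, 23.0 and 29.2 CPM in those labelled Kit-lo, again without overlap (log2 fold change -1.07, standard error 0.17, adjusted p = 0.001 from edgeR). *Aqp7* and *Aqp11* kept these calls in 15 of 15 alternatives. *Mip*, the water channel of the lens, was at 0.519 to 1.37 CPM (log2 fold change -0.33, adjusted p = 0.679 from edgeR), and 57.0% of its exonic bases overlap a gene on the opposite strand. *Aqp1* and *Aqp9* were chosen on these groups, so their opposite signs are a description. Of the 3 other aquaporins tested, *Aqp7* and *Aqp11* were called lower and *Mip* was not called.

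In the m6A libraries 7 other carbonic anhydrases and 2 other aquaporins were tested, and edgeR called 0 of either family. The carbonic anhydrases ran from -0.70 for *Car15* to 0.09 for *Car5b*, with *Car3* at -0.49, *Car7* at -0.48, *Car13* at -0.39, *Car12* at -0.33 and *Car9* at -0.01. None had an unadjusted p under 0.05. *Car15* had 22 to 38 counts per library, and 65.7% of its exonic bases belong to another annotated gene too. *Car12* had 1 to 13 counts per library. *Aqp11*, at 92.5 and 83.7 CPM in input and 48.6 and 57.8 CPM in IP, was lower in both IP libraries and close to the threshold (log2 fold change -0.73, unadjusted p = 0.00791, adjusted p = 0.0501 from edgeR). *Mip* had a log2 fold change of 0.62 (adjusted p = 0.327 from edgeR).

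Bicarbonate made by carbonic anhydrases leaves the red cell through an exchanger, and the transporters of bicarbonate, protons and lactate were the first related list. Of its 19 genes 10 passed the filter, and 4 were called higher and 1 lower, beside 12.1% and 9.83% of all genes. *Slc4a1* encodes band 3, the chloride and bicarbonate exchanger of the red cell membrane. It was at 0.958, 1.43 and 3.15 CPM in control and 198, 313 and 352 CPM in those labelled Kit-lo, where *Car1* was lower than in control. *Slc4a1* rose (log2 fold change 7.31, standard error 0.36, adjusted p = 9.95e-07 from edgeR). *Slc4a1* is also a late erythroid gene. The 14 late erythroid markers summed to 597 to 677 CPM in control and 3690 to 5660 CPM in those labelled Kit-lo. Of these 14, 12 were called higher, beside 12.1% of all genes, and 0 were at zero in all libraries of a group. *Slc4a1* is itself among these markers. Any sum that differs between the RNA-seq groups moves with every other difference between them, so no link is read from it. The part of these sums in the differences given here was not tested.

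The monocarboxylate carriers *Slc16a3* (log2 fold change 2.15, adjusted p = 1.62e-04 from edgeR) and *Slc16a1* (0.66, adjusted p = 0.0334) rose as well. *Slc16a1* overlapped between groups, since library 1 of the Kit-lo group was at 401 CPM, within the control range of 366 to 434 CPM, and its call was lost in 7 of 15 alternatives. *Slc4a7*, a sodium bicarbonate cotransporter, fell (log2 fold change -0.84, adjusted p = 0.00183 from edgeR).

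The Rh proteins, some of which are channels for ammonia and perhaps carbon dioxide, share the red cell membrane with *Aqp1*. Of 3 tested genes on the list of Rh proteins and urea channels, 2 were called higher and 0 lower, beside 12.1% and 9.83% of all genes. *Rhag* was at 244, 223 and 220 CPM in control and 349, 400 and 378 CPM in those labelled Kit-lo (log2 fold change 0.71, adjusted p = 1.41e-04 from edgeR). *Rhd* went from 1019 ± 70.3 to 1661 ± 257 CPM (SD, n = 3; log2 fold change 0.71, adjusted p = 7.77e-04 from edgeR). *Slc14a1*, the urea channel of the red cell, had a log2 fold change of 0.24 (adjusted p = 0.0469 from edgeR), under the fold threshold.

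Glycerol that enters through *Aqp9*, *Aqp7* or *Aqp3* is phosphorylated by glycerol kinase. *Gk*, which encodes it, had a log2 fold change of -0.33 (adjusted p = 0.18 from edgeR) and was not called. Beside 12.1% and 9.83% of all genes, 3 of 8 tested genes of glycerol handling were called higher and 0 lower. These were *Pgp*, a phosphatase that acts on glycerol 3-phosphate (log2 fold change 1.32, adjusted p = 0.00223 from edgeR), and the lipases *Mgll* (0.91, adjusted p = 8.48e-04) and *Lipe* (0.60, adjusted p = 0.0295), which release glycerol from lipids. *Lipe* overlapped between groups and kept its call in 9 of 15 alternatives, and 15.6% of its exonic bases overlap an antisense gene.

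Water flow through *Aqp1* follows ions, and of 20 tested genes of cell volume and ion regulation 9 were called higher and 0 lower, beside 12.1% and 9.83% of all genes, with a median log2 fold change of 0.32. The largest rises were those of *Lrrc8b*, a subunit of volume-regulated anion channels (1.29, adjusted p = 0.00396 from edgeR), *Atp2b4*, a calcium pump of the red cell membrane (1.08, adjusted p = 6.36e-04), *Atp1b2*, a subunit of the sodium pump (1.03, adjusted p = 1.22e-04), and *Slc12a4*, a potassium and chloride cotransporter (1.02, adjusted p = 4.24e-04).

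**Figure D5:**
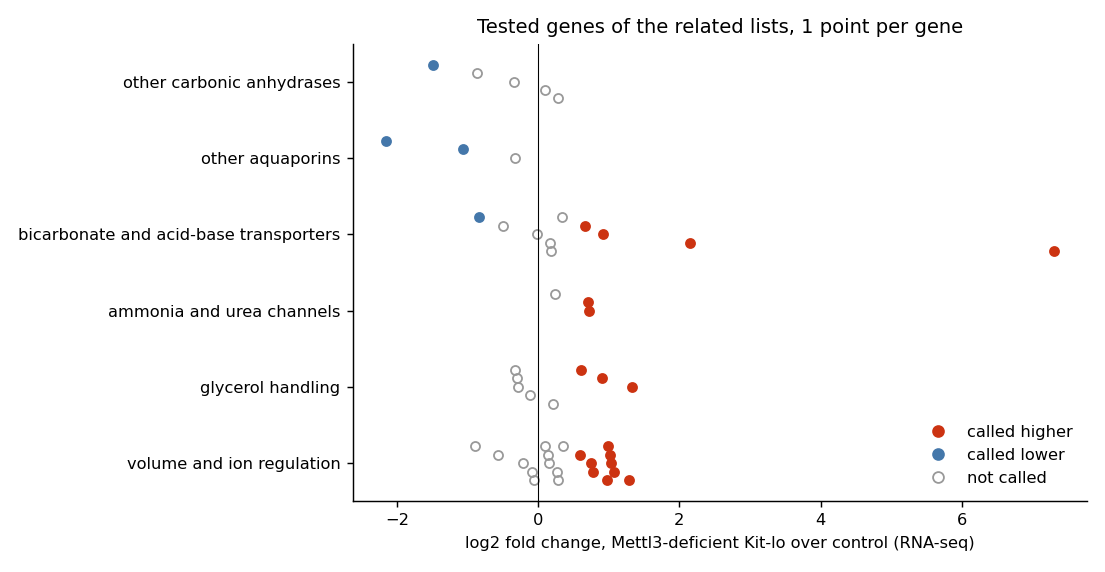
Log2 fold change of the libraries labelled Kit-lo over control for each tested gene of the 6 related lists, 1 point per gene, with genes called higher in red, called lower in blue and not called as open circles. The called genes of the 2 enzyme and channel families lie to the left of 0, *Slc4a1* lies far to the right among the transporters, and 9 of 20 volume genes lie to the right as called.

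In the m6A libraries, where 7.90% of all genes were called higher and 7.86% lower, 1 of 9 tested genes of bicarbonate and acid-base transport was called higher and 0 lower, and of 8 glycerol genes 0 were higher and 1 lower. *Slc16a1* was higher in IP (log2 fold change 1.61, adjusted p = 0.0106 from edgeR) and *Pgp* lower (-1.02, adjusted p = 0.0126). Both lost the call without input replicate 1, *Slc16a1* also without IP replicate 1 and *Pgp* also without input replicate 2. Of 20 volume and ion genes 4 were higher and 2 lower. *Lrrc8a*, a subunit of volume-regulated anion channels, had the largest log2 fold change (1.81, adjusted p = 0.0236 from edgeR), but 66.2% of its exonic bases belong to another annotated gene too. *Wnk1*, a kinase that regulates ion cotransporters, was at 30.6 and 32.0 CPM in input and 87.5 and 83.2 CPM in IP (1.45, adjusted p = 0.00183 from edgeR) and was the only one of the 6 called in 11 of 11 alternatives. *Atp2b4* (1.14) was also higher in IP, and *Oxsr1* (-1.03) and *Kcnn4* (-0.74) were lower. No gene on the list of Rh proteins and urea channels was called, of 3 tested.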

How the data were processed

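RNA-seq (Smart-seq2) of 6 CFU-E libraries and SLIM-seq of 4 control libraries were analysed, and the ProE samples were not analysed here. The authors filtered reads with fastp 0.23.4, quantified them with kallisto 0.48.0 (mm10 in the methods), merged them with tximport and deposited the estimated counts of each gene as whole numbers without normalization. Whether molecular identifiers or strand were used in counting is not given in the sources used here. Counts were tested in R 4.3.3 with edgeR 4.0.16 (TMM, filterByExpr, quasi-likelihood test, Benjamini-Hochberg adjustment over all genes), each experiment by itself. RNA-seq calls needed a fold of 1.5 and an adjusted p under 0.05, and m6A calls the latter only. CPM used TMM library sizes. Standard errors are the log2 fold change divided by the square root of F. DESeq2 1.42.0, other scalings and filters, a replicate block and single libraries left out were the alternatives. The tests were first checked on simulated counts.

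The members and lists were chosen with earlier results of these data known. Named are the 5 members, the other carbonic anhydrases and aquaporins that passed a filter, up to 4 called genes of each related list per direction with the largest change, the 2 nearest profiles per gene, and *Mettl3* and *Kit*. Some genes of the lists are not reported here. The early erythroid progenitor, CFU-E, granulocyte, macrophage and late erythroid markers are given as levels. Nothing in the labels says that replicates came from separate animals, so p-values measure the spread between these samples. Coordinates and lengths are from GENCODE on GRCm38, where 99.9% of the genes were found by symbol. Figures used Python 3.11.15 and matplotlib 3.10.9.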

Additional observations from a re-analysis of the deposited data

How the results depend on the processing

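The RNA-seq log2 fold changes of *Car1*, *Car2*, *Aqp1* and *Aqp9* kept their sign under 3 other scalings and with each of the 6 libraries left out. In this order they ran over -2.50 to -2.37, -0.37 to -0.25, 0.38 to 0.54 and -2.15 to -2.05. Leaving out 1 of 3 libraries can move a group mean only within the spread of that group, so these ranges are a description. Genes called between the RNA-seq groups numbered 2631, 4128 with no fold threshold, 1147 when tested against the fold, and 2180 to 2726 with a library left out. Of the related genes 22 were called, 11 when tested against the fold, and 20 to 22 with a library left out. Scaling by library totals gave 1587 RNA-seq genes higher and 1015 lower, and upper-quartile scaling 1330 and 1293.

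In the m6A libraries 1804 genes were called (904 higher and 900 lower), and 591 to 2326 with a library left out: 591 without input replicate 1 and 1173 without IP replicate 1. Library totals and upper-quartile scaling moved the median of all genes from 0.06 to 0.21 and 0.18. *Car2* was called with DESeq2 (-0.86, adjusted p = 0.00609), library totals (-0.67, adjusted p = 0.0206 from edgeR) and no filter (-0.82, adjusted p = 0.0429 from edgeR), and ran from -0.98 to -0.68 with a library left out, called without IP replicate 1 or 2. *Aqp9* ran from 0.18 to 1.02 with a library left out. The cause was not tested. *Aqp3* ran from 0.04 to 6.86 over its alternatives and was not fitted with a filter at CPM above 1. *Car1* and *Aqp1* were called under none of 11 alternatives, and *Aqp1* changed sign with single libraries left out (-0.33 to 0.58), as *Car1* did with a scaling (to 0.05).

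With the replicate number as a block, m6A calls numbered 3538, *Car2* was at -0.82 (adjusted p = 0.00341 from edgeR) and *Aqp9* at 0.63 (adjusted p = 0.0165 from edgeR). The labels do not say that the numbers pair libraries. Deviations of same-numbered libraries correlated at 0.205 in the m6A and at 0.0344, -0.017 and -0.0719 in the RNA-seq libraries.

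Levels per length moved with the length used. With the union of exons, control was at 9756 TPM for *Car1*, 11570 for *Car2*, 1648 for *Aqp1* and 242 for *Aqp9*, and the libraries labelled Kit-lo at 1874 for *Car1*, 2397 for *Aqp1* and 59.6 for *Aqp9*. With the mean coding length, control was at 12290 TPM for *Car2*, 858 for *Aqp1* and 224 for *Aqp9*, and the libraries labelled Kit-lo at 10350, 1250 and 55.2. Depth limits *Aqp3*, with 0 to 26 counts per library.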
